A study of Mus musculus with 2 samples.

Results

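The genes described here encode the inter-alpha-trypsin inhibitors and the fetuins, plasma proteins made mainly by hepatocytes. They are the 8 genes Itih1, Itih2, Itih3, Itih4, Ambp, Ahsg, Fetub and Hrg, taken by symbol from a table of 15526 genes, and all 8 were listed. Liver RNA was compared between female NOG-TKm30 mice of 22 weeks given acetoaceto-o-toluidide (AAOT) at 0.3% for 4 weeks and controls of the same age, sex and genotype at 0%. The labels do not give the route. Mice of both groups carried TKm30, the cDNA of a mutant herpes simplex virus thymidine kinase (HSVtk mutant clone 30), driven by the mouse transthyretin enhancer and promoter, which is active in hepatocytes. NOG mice are severely immunodeficient, and the labels name NOG as well as C57BL as the background. RNA of 3 mice was mixed into 1 library per group, so there was no replicate and no test of the treatment. Values are the deposited CPM (reads scaled by library size and by a further factor per library), and the interval beside a fold is the 95% counting interval of the ratio of 2 read counts. It leaves out differences between mice, pools and library preparations.

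An inter-alpha-trypsin inhibitor is built from a light chain, bikunin, which carries a chondroitin sulfate chain, and heavy chains that are joined to that chain. Ambp encodes a precursor that is cut into alpha-1-microglobulin, a heme-binding lipocalin, and bikunin, a Kunitz-type inhibitor of serine proteases. Itih1, Itih2 and Itih3 encode the heavy chains, which can be passed on to hyaluronan and so stabilise extracellular matrix, while the product of Itih4 circulates without bikunin. Ahsg (fetuin-A, which keeps calcium phosphate in solution), Fetub (fetuin-B, an inhibitor of ovastacin in the egg coat) and Hrg (histidine-rich glycoprotein, a carrier that binds heparin, zinc and plasminogen) belong to the cystatin superfamily together with the kininogens. In inflammation Itih4 and Itih3 are known as acute phase genes that go up, and Ahsg as one that goes down.

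The genes lie at 4 places of the mouse genome (RefSeq, GRCm38.p6, also known as mm10). Itih4 (chromosome 14, 30886476 to 30901986), Itih3 (30908572 to 30923787) and Itih1 (30929180 to 30943289) stand side by side, with 6585 bases between Itih4 and Itih3 and 5392 bases between Itih3 and Itih1. Ahsg (chromosome 16, 22892015 to 22899451), Fetub (22918382 to 22939768) and Hrg (22951072 to 22961659) form a second cluster next to the kininogen genes. Itih2 lies alone on chromosome 2 (10094591 to 10130683) beside Itih5, and Ambp on chromosome 4 (63143275 to 63154172). The longest annotated transcripts of the 4 heavy chain genes have 21 to 23 exons and 3077 to 3531 bases, against 7 to 10 exons and 1268 to 1734 bases for Ambp, Ahsg, Fetub and Hrg. The genes share little sequence with others: every 50-base stretch of the longest transcript was free of matches to other genes for 7 of the 8, and 99.0% were for Ahsg. The exception was the antisense transcript Gm30505, which overlaps the start of Ahsg and had only 41 reads without AAOT and 28 with it. Whether the authors counted by strand is not stated, so reads of this overlap may not be separated.

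Sequences before or, for Itih3, around the listed start sites are shown. They cover Itih3 and Ahsg, the members with the lowest ratio in each cluster. Itih1, next to Itih3, and Hrg, in the cluster of Ahsg but not next to it, are given beside them. Both had ratios nearer to 1. Fetub, which lies between Ahsg and Hrg, is not printed. All stretches are RefSeq sequence of GRCm38.p6, 5′ to 3′ on the gene's strand, and capitals mark matches to the motifs named in the next paragraph. For Itih3 the start listed for the window lies inside the gene and not at its end at 30923787. Its window lies largely within an annotated first exon, which covers 173 of its 250 bases before the listed start. Only the stretch from its first to its last match is therefore shown (chr14:30923579-30923604, minus strand). The others give the 250 bases before the start: Itih1 at chr14:30943290-30943539, minus strand, Ahsg at chr16:22891765-22892014, plus strand, and Hrg at chr16:22950822-22951071, plus strand. The TATAAA match of Hrg lies after its start and so outside the stretch shown. That of Itih3 also lies after the listed start, at position 4, and the printed stretch begins at -17. The stretch of Itih3 is thus not upstream sequence like the other printed ones.
Itih3: GAAAACActgggctggcataTATAAA
Itih1: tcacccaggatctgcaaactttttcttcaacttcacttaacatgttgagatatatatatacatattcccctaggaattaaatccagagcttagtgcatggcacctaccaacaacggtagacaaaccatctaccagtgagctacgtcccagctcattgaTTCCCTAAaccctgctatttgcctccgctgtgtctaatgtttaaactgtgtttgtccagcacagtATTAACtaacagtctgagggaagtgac
Ahsg: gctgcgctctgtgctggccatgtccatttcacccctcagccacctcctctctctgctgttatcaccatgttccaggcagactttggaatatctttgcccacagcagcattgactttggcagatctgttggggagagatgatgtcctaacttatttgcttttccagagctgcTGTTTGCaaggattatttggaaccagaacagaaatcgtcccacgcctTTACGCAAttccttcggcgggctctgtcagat
Hrg: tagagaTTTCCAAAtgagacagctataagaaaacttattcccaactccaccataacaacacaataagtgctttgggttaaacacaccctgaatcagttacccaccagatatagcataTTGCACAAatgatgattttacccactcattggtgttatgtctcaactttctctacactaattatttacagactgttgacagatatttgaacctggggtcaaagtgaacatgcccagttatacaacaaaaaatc

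The windows searched run from 250 bases before to 50 bases after each listed start. All 8 genes were found in the RefSeq table, with 9 windows since Fetub has 2, and positions count from the listed start, where the base before it is -1. The C/EBP motif TTNNGNAA was searched on both strands, like the others, and stood in 6 of the 9 windows, against 40.7% of all 32851 windows in the table and 31.6% of the 7702 windows of genes at 10 CPM or more. In Ahsg it matched at -32. The FOXA motif TGTTTNC stood in 5 of 9 windows, namely those of Ambp, Itih3, Ahsg and both of Fetub, against 20.5% of all windows. A TATAAA match stood in 4 of 9, against 13.6% of all. It began at -3 in Itih4 (on the opposite strand), 4 in Itih3, 1 in Hrg and -31 in the upstream window of Fetub. In that Fetub window an annotated exon begins before the listed start. Its TATAAA and TGTTTNC matches lie beyond the exon-free run of 202 bases. The STAT motif TTCNNNGAA was found in 1 window, that of Itih4 at -51, against 8.30% of all. The HNF1 core GTTAAT was found in 1 window, that of Itih1 at -27, against 7.10% of all, and the HNF4 motif CAAAGTCCA in 0 windows, against 0.475% of all. FOXA and C/EBP matches share bases in the downstream Fetub window. Of the 4 genes whose sequences are printed, Itih3 and Ahsg held TGTTTNC and Itih1 and Hrg did not. The match of Itih3 lies inside the gene, so its window is not like those of the other printed genes. Ambp and Fetub, with ratios nearer to 1, held TGTTTNC too. Fetub is the gene next to Ahsg, so the contrast of the printed genes does not hold for it. A match describes these letters and not a bound site.

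All 8 genes had fewer CPM with AAOT than without, by 1.02-fold to 1.68-fold, but 7 of 8 when columns were scaled by their totals with or without the ribosomal precursor Rn45s, where Hrg was on the other side of 1. Itih3 and Ahsg stood apart from the rest, at 1.68-fold and 1.60-fold lower, while Itih1, Itih2 and Itih4 lay together near 1.2-fold lower and Hrg was nearly equal in the pools. The libraries held 18801241 reads assigned to genes without AAOT and 16528533 reads with it. Of 8 genes 0 were at least 2-fold lower or higher, where 0.425% of the 7761 genes with a mean of at least 10 CPM were lower by that size and 0.773% higher. At a size of 1.5-fold, 2 of 8 were lower and 0 higher, against 1.39% and 2.07% of the 7761. The direction itself is common: 53.6% of the 7761 genes had a log2 ratio below 0, and so did 59.6% of the 255 genes whose mean CPM lay within the range of the 8, which themselves are among the 255. In that range, chosen after the values were seen, 5.49% were at least 1.5-fold lower and 6.27% higher, while 1.96% were at least 2-fold lower and 3.92% past 2-fold in either direction. With 1 CPM added to each value, the 8 genes had a median log2 ratio of -0.29, beside -0.02 over the 7761 genes and -0.05 over the 255. The other scalings tried moved the median of all genes by up to 0.047, which can turn the sign of values as near to 0 as that of Hrg. In bulk RNA, fewer hepatocytes and less RNA of these genes per cell cannot be told apart.

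**Figure D1:**
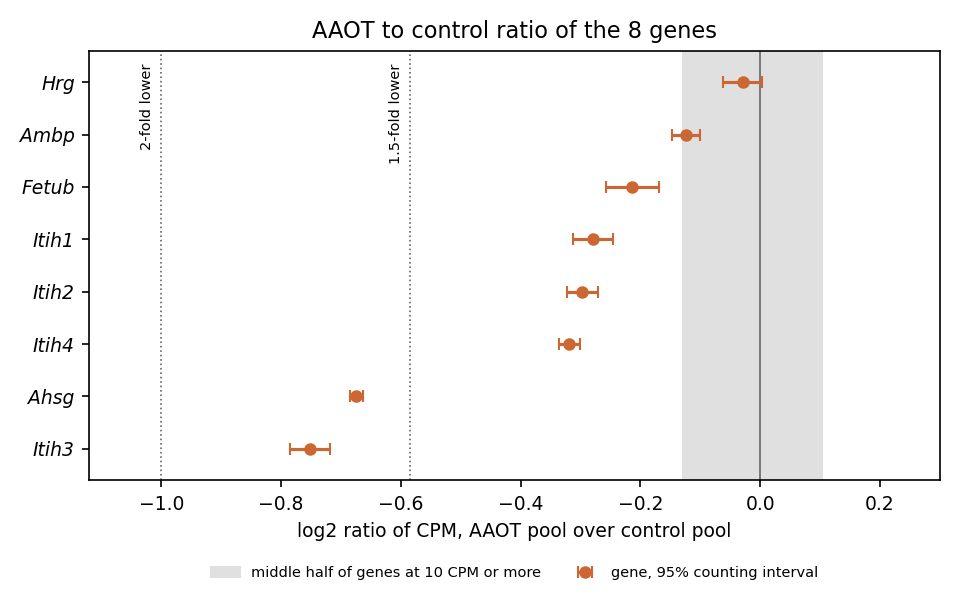
Log2 ratio of CPM (AAOT pool over control pool) on the x axis for each of the 8 genes, with 95% counting intervals as bars, and the quartile range of the 7761 genes at 10 CPM or more in grey, from -0.13 to 0.10. Itih3 and Ahsg lie past the 1.5-fold line, no gene reaches the 2-fold line, and only the interval of Hrg includes 0.

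The light chain precursor was close to equality. Ambp was at 1752 CPM without AAOT and 1609 CPM with it, 1.09-fold lower (1.07 to 1.11). Among the 7761 genes 26.4% had a lower ratio than Ambp, so lower ratios than that of Ambp were common in these libraries.

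The heavy chain genes that share bikunin differed from each other. Itih1 was at 916 CPM without AAOT and 755 CPM with it, 1.21-fold lower (1.19 to 1.24). Itih2 was at 1546 CPM and 1259 CPM, 1.23-fold lower (1.21 to 1.25). The ratios of these 2 genes, whose products form inter-alpha-inhibitor with bikunin, could not be told apart by counting error, with a ratio of ratios of 1.01 (0.98 to 1.04). Itih3, whose product forms pre-alpha-inhibitor with bikunin, was at 1078 CPM in the control pool with 20011 reads and at 640.1 CPM in the AAOT pool with 10712 reads, 1.68-fold lower (1.64 to 1.72). Only 0.863% of the 7761 genes had a lower ratio than Itih3, and 3.14% of the 255 genes of similar level. Its ratio was 1.39-fold (1.34 to 1.43) further down than that of its neighbour Itih1 on the same strand and 1.35-fold (1.31 to 1.39) further than that of Itih4 on its other side. Itih4, the heavy chain gene without a bikunin partner, was at 3315 CPM without AAOT and 2658 CPM with it, 1.25-fold lower (1.23 to 1.26).

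The mix of heavy chain transcripts differed between the pools. Itih3 made up 15.7% of the reads of the 4 heavy chain genes without AAOT (exact 95% interval 15.5 to 15.9) and 12.05% with it (11.8 to 12.3). The other 3 shares were higher in the AAOT pool, at 13.4% and 14.2% for Itih1, 22.6% and 23.7% for Itih2, and 48.4% and 50.04% for Itih4, without and with AAOT. Among the 3 genes whose products join bikunin, the share of Itih3 was 30.4% without AAOT and 24.1% with it. Per kb of the longest transcript, Itih1, Itih2 and Itih3 together came to 0.81 of the level of Ambp without AAOT and 0.67 with it. For Itih3 alone this level was 0.24 of that of Ambp without AAOT and 0.15 with it, while for Itih1 it was 0.22 and 0.19.

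Ahsg was the most abundant of the 8 and carried most of their summed difference. It was at 10142 CPM in the control pool, from 188344 reads, and at 6355 CPM in the AAOT pool, from 106344 reads, 1.60-fold lower (1.58 to 1.61). Of the 7761 genes 1.11% had a lower ratio, and of the 255 genes within the level range of the 8, 4.31%. Ahsg took 1.002% of all assigned reads without AAOT and 0.643% with it, and it alone accounted for 68.1% of the difference between the summed CPM of the 8 genes, which was 20097 without AAOT and 14538 with it. The sum of the other 7 was 1.22-fold lower (1.21 to 1.225).

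The other 2 genes of this cluster, Fetub next to Ahsg and Hrg beyond it, were closer to equality. Fetub was at 496 CPM without AAOT and 428 CPM with it, 1.16-fold lower (1.12 to 1.20). Hrg was at 852 CPM and 835 CPM, 1.02-fold lower (0.997 to 1.04, so equality is within counting error), and its ratio went to the other side of 1 when the columns were scaled by their totals, at a log2 ratio of 0.0066, or by totals without Rn45s, at 0.019. The ratio of Ahsg was 1.38-fold (1.33 to 1.42) further down than that of Fetub and 1.56-fold (1.53 to 1.60) further than that of Hrg. Within these 3 genes the share of Ahsg was 88.3% of reads without AAOT and 83.4% with it. Of the 28 pairs among the 8 genes, 26 had ratios whose counting intervals set them apart, the exceptions being Itih2 with Itih1 and with Itih4. These intervals come from large read numbers and do not show that the pairs would differ between other pools of mice.

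**Figure D2:**
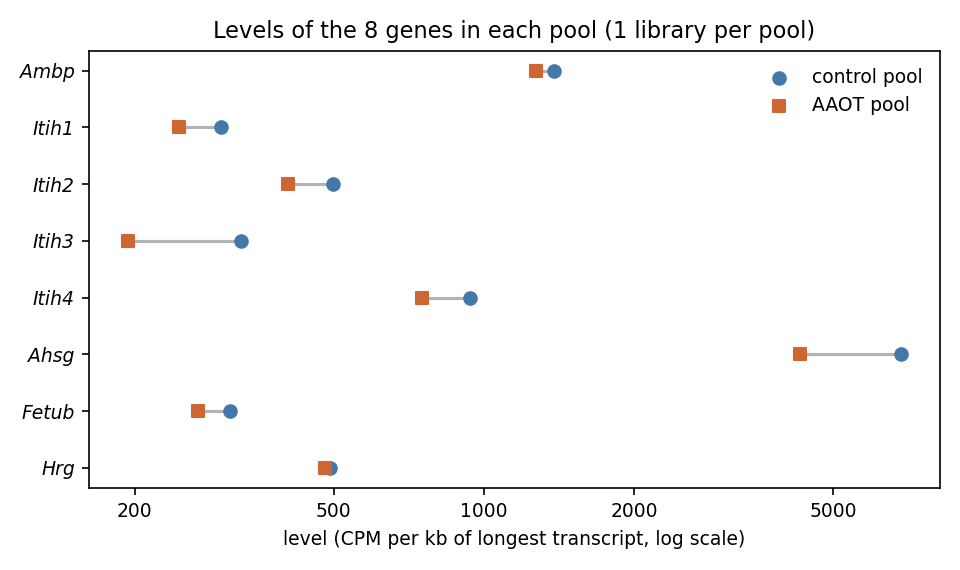
Level of each gene as CPM per kb of its longest transcript (x axis, log scale) in the control pool (circles) and the AAOT pool (squares), with 1 library each. Ahsg is highest in both pools, and Itih3 moves from 326 to 194 CPM per kb, the lowest of the 8 in the AAOT pool.

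Per length the order of levels in the control pool was Ahsg at 6835 CPM per kb, Ambp at 1381, Itih4 at 939, Itih2 at 499, Hrg at 491, Itih3 at 326, Fetub at 311 and Itih1 at 298. In the AAOT pool it was Ahsg at 4282 CPM per kb, Ambp at 1269, Itih4 at 753, Hrg at 481, Itih2 at 406, Fetub at 268, Itih1 at 245 and Itih3 at 194. Itih3 went from sixth to last place, and Hrg and Itih2 changed places. Without replicates no spread is known for neighbours in this order, so Itih2 and Hrg, and Itih3, Fetub and Itih1, cannot be ranked in the control pool. The longest Itih3 transcript, of 3302 bases, is not annotated as coding. With its longest coding transcript, of 2992 bases, the levels were 360 CPM per kb without AAOT and 214 CPM per kb with it, with the same places. Among the 14894 genes with a transcript length, Ahsg ranked 6th per length in the control pool and 5th in the AAOT pool, Ambp 34th and 36th, and Itih3 149th and 261st.

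Genes next to the members were mostly nearer to equality than Itih3 and Ahsg. Of the 3 nearest listed genes on each side of the 4 places, 24 genes in all, 14 were at 10 CPM or more. Of these 14, 7 had a log2 ratio below 0, the median was -0.02 and 0 were lower by 1.5-fold or more. By that size 1 was higher, Col27a1. Of the 7761 genes at 10 CPM or more, 1.39% were lower and 2.07% higher by that size. The 0 of 14 is near the share of lower genes. Beyond Itih1 on chromosome 14, the kinase gene Nek4 was at 17.5 CPM without AAOT and 18.4 CPM with it. Beyond Hrg on chromosome 16, the kininogen genes Kng2 and Kng1, precursors of bradykinin, were 1.07-fold (1.02 to 1.12) and 1.06-fold (1.05 to 1.08) lower. Kng1 and Kng2 share sequence, with 82.0% and 81.8% unique stretches, so the split between them is uncertain. On the other side of Ahsg, the endoplasmic reticulum chaperone gene Dnajb11 was at 53.5 CPM without and 44.2 CPM with AAOT (ratio 0.83, 0.75 to 0.91). Near Ambp, the collagen gene Col27a1 was at 12.8 CPM without AAOT and 22.2 CPM with it, a ratio of 1.73 (1.47 to 2.05), and the orosomucoid gene Orm1 was at 354 CPM and 300.2 CPM. Itih5, a heavy chain relative beside Itih2, was at 31.3 CPM without and 32.7 CPM with AAOT (ratio 1.04, 0.93 to 1.18).

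**Figure D3:**
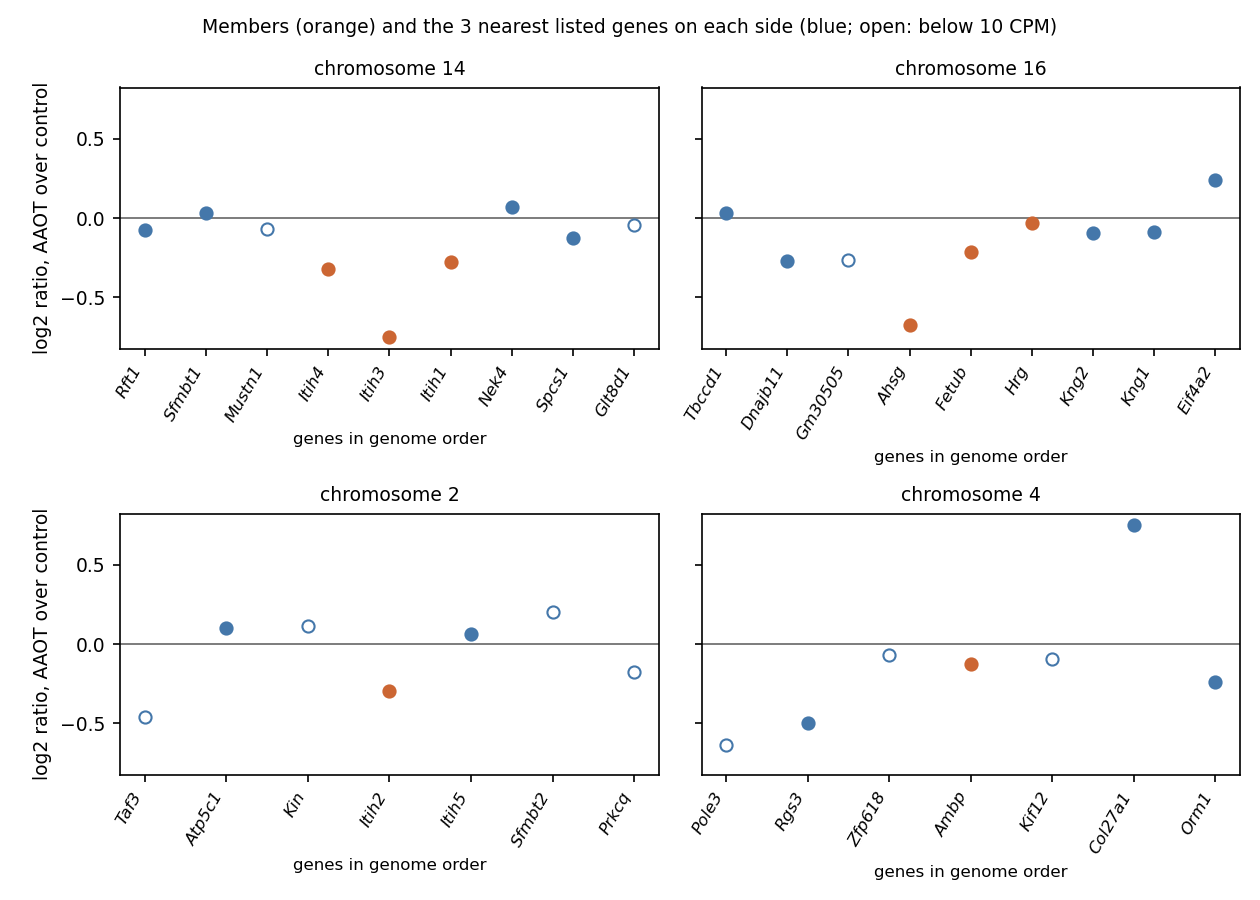
Log2((AAOT + 1)/(control + 1)) of CPM on the y axis for the members (orange) and the 3 nearest listed genes on each side (blue, open where the mean is below 10 CPM), in genome order at the 4 places. Itih3 at -0.75 lies below Itih4 and Itih1, and from Ahsg at -0.67 the values approach 0 towards Hrg at -0.03.

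Genes that act with these proteins in the matrix or build the bikunin chain showed no shared direction. Of 16 genes for hyaluronan synthesis, binding and turnover 12 were listed and 5 were at 10 CPM or more, 3 above 0 and 2 below, with a median log2 ratio of 0.06. The hyaluronan scavenger receptor genes Stab1 and Stab2 are among them, and Stab1 was at 106 CPM without AAOT and 121 CPM with it. Tnfaip6, whose product TSG-6 passes heavy chains to hyaluronan, was below 10 CPM. Of 23 genes for assembly of the chondroitin sulfate chain and for precursor cleavage, 12 were at 10 CPM or more, with 5 above 0, 7 below and a median of -0.05, against 0.078 over those at 50 CPM or more. Among them Furin, a protease that cuts secretory precursors, was at 423 CPM without and 473 CPM with AAOT (ratio 1.12, 1.08 to 1.15), and the xylosyltransferase gene Xylt2, which starts the chain, was at 34.8 CPM without and 29.2 CPM with AAOT (ratio 0.84, 0.75 to 0.95). Of 7 genes for targets and clearance of fetuins 4 were at 10 CPM or more and all 4 were above 0. They were the insulin receptor gene Insr at 1.04-fold (1.001 to 1.07), the asialoglycoprotein receptor genes Asgr1 at 1.02-fold (0.99 to 1.06) and Asgr2 at 1.09-fold (1.04 to 1.15), and Tgfbr2 at 1.26-fold (1.11 to 1.43). None of these 3 lists had a gene past 1.5-fold in either direction among those at 10 CPM or more. Over the 7761 genes 1.39% were lower and 2.07% higher by that size, so in lists this short its absence is ordinary.

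Other plasma protein genes were mostly lower as well. For comparison, 74 of all 111 genes at a mean of 1000 CPM or more were below 0, with a median log2 ratio of -0.12. These 111 include members and genes of the lists below. In a list of 36 secreted hepatocyte proteins 35 were below 0, the median log2 ratio was -0.22 and 1 was at least 1.5-fold lower, the apolipoprotein gene Apoa1, at 1.63-fold (1.62 to 1.65). The range of this list, from -0.71 to 0.05, holds 7 of the 8 genes, all but Itih3 at -0.75. Partners of Hrg in coagulation and fibrinolysis at 10 CPM or more were below 0 in 9 of 9 cases with a median of -0.16, although the highest of them, at -0.0044, is nearer to 0 than the other scalings move all genes. The fibrinogen chain genes Fga, Fgb and Fgg were lowest among them at 1.37-fold (1.36 to 1.39), 1.43-fold (1.41 to 1.44) and 1.40-fold (1.38 to 1.42) lower, whereas the plasminogen gene Plg was 1.06-fold lower (1.05 to 1.08). Fga, Fgb, Fgg, Plg and Serpinc1 are also among the 36 secreted proteins, so these lists are not separate groups. Protease inhibitor genes held larger differences than any of the 8. Of 16 at 10 CPM or more 12 were below 0 and 2 at least 2-fold lower, namely Mug1, an alpha-macroglobulin type inhibitor at 6465 CPM without AAOT and 2705 CPM with it, 2.39-fold lower (2.36 to 2.42), and Serpina3k at 10583 CPM and 5043 CPM, 2.10-fold lower (2.08 to 2.12). Mug1 and Serpina3k share sequence with relatives, with 67.1% and 86.0% unique stretches. Tfpi2, a Kunitz-type inhibitor like bikunin, had the highest ratio of the list, at 42.4 CPM without AAOT and 57.8 with it.

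Itih3 and Itih4, which go up in inflammation, and Ahsg, which goes down, were all lower here, and other genes of both classes were mostly lower too. Both classes share genes with the list of secreted proteins, so the counts are not separate. Shared are Hpx, C3, Cp, Fga, Fgb and Fgg of the genes that go up. Of those that go down, Alb, Ttr, Apoa1, Rbp4, Trf, Gc and Apoh are shared. Of 18 further acute phase genes that inflammation raises, at 10 CPM or more, 15 were below 0, with a median of -0.35 and 4 lower by 1.5-fold or more. The serum amyloid genes Saa2 and Saa1, which share sequence, had the lowest ratios of them at log2 values of -3.52 and -2.83, and haptoglobin, Hp, at 1652 CPM without AAOT and 963 CPM with it, was 1.72-fold lower (1.68 to 1.75), close to Itih3. Of 11 genes that go down in the acute phase 10 were also below 0, with a median of -0.24, such as the transferrin gene Trf at 1.27-fold (1.27 to 1.28) lower, although only 20.2% of its stretches are unique, and the thyroxine-binding globulin gene Serpina7 at 1.78-fold (1.58 to 2.01) lower. Serpina6, the corticosteroid-binding globulin gene, was the exception at 1.38-fold higher (1.33 to 1.43). By 1.5-fold or more, 1.39% of the 7761 genes were lower and 2.07% higher. Among 12 genes of interleukin 6, interleukin 1 and related signalling at 10 CPM or more 4 were above 0, 8 below and 0 past 1.5-fold, with a median of -0.08. Within them Il6ra was at 41.8 CPM without and 52.7 CPM with AAOT (ratio 1.26, 1.14 to 1.39), and Tnfrsf1a at 55.1 CPM without and 74.99 CPM with AAOT (ratio 1.36, 1.25 to 1.48). Socs3, the feedback inhibitor of interleukin 6 signalling and named after its values were seen, had a mean just under 10 CPM, at 15.3 CPM without AAOT and 4.42 CPM with it.

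Of 17 hepatocyte transcription factor genes at 10 CPM or more 12 were below 0 and the median was -0.08. Foxa3 was lowest, at 67.5 CPM without AAOT and 38.0 CPM with it, 1.78-fold lower (1.61 to 1.96), followed by Prox1 at 1.52-fold (1.43 to 1.61) lower. The factor genes Hnf4a, at a log2 ratio of -0.03, and Cebpb, at -0.07, were nearly equal in the pools. Cebpa, at 412 CPM without AAOT and 352 CPM with it, was 1.17-fold lower (1.13 to 1.21). Foxa2 was 1.31-fold lower (1.13 to 1.52). Foxa1 was 1.06-fold lower (0.92 to 1.22), so equality is within its counting error.

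**Figure D4:**
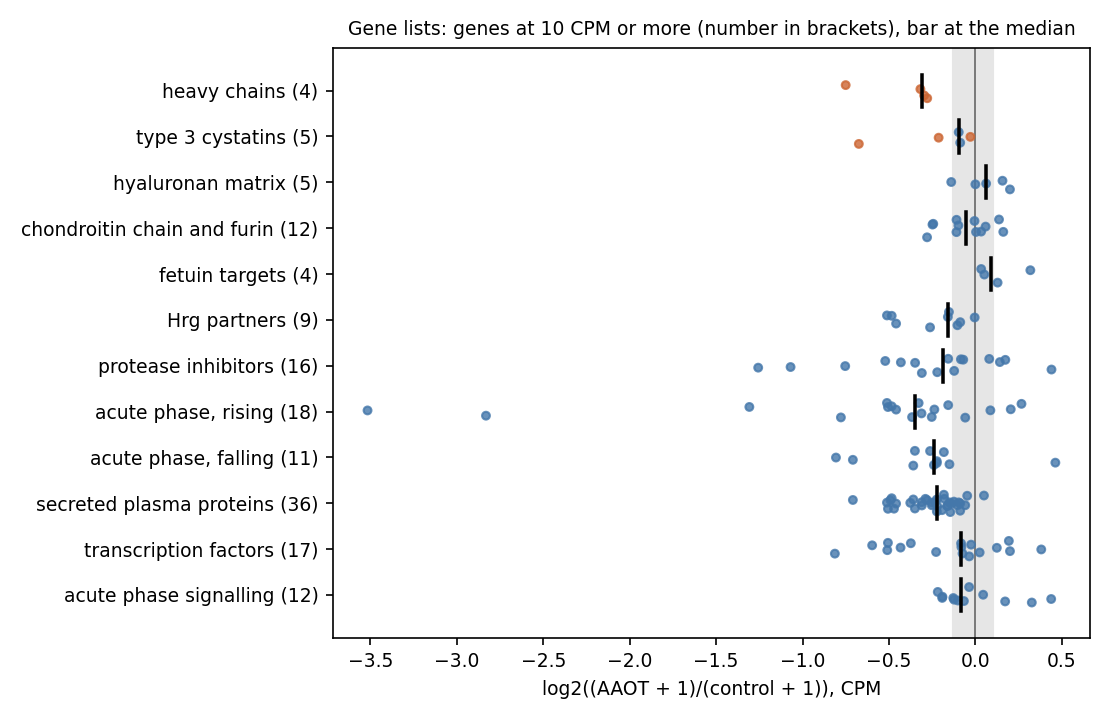
Log2((AAOT + 1)/(control + 1)) of CPM on the x axis for genes at 10 CPM or more in 12 gene lists (number of genes in brackets), with members in orange, the list median as a black bar and the quartile range of the 7761 genes in grey. The list of genes that go up in the acute phase has the lowest median, -0.35, that of fetuin targets the highest, 0.09, and the type 3 cystatins, transcription factors and acute phase signalling lie at -0.10, -0.08 and -0.08.

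The genes at a mean of 1000 CPM or more with a log2 ratio nearest to the median of the 8, over the 2 libraries, were Fn1 (fibronectin), Apoc3 (an apolipoprotein), Cdo1 (cysteine dioxygenase), Igfbp4 (a binding protein of insulin-like growth factors) and Vtn (vitronectin). Their log2 ratios lay between -0.31 and -0.28. With a single ratio per gene this likeness is only one of size.

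The defining markers of hepatocytes were present in both pools. All 8 hepatocyte markers were at 10 CPM or more, with 6 below 0, 2 above and a median of -0.15, and their summed level was 86107 CPM without AAOT and 74795 CPM with it. Albumin, Alb, was 1.13-fold lower (1.13 to 1.14) and Cps1, a urea cycle enzyme, 1.20-fold higher (1.19 to 1.21). Alb, Ttr and Apoa1 are hepatocyte markers that are also in the secreted protein list. Summed markers of the other cells were 337 CPM and 357 CPM for Kupffer cells and macrophages, 487 CPM and 478 CPM for sinusoidal endothelium, 520 CPM and 454 CPM for stellate cells, 45.1 CPM and 35.7 CPM for cholangiocytes and 323 CPM and 353 CPM for erythroid cells, without and with AAOT. Of 9 lymphocyte and NK cell markers 2 were listed and of 5 adipocyte markers 0, where the smallest read sum of any listed gene was 2, and the neutrophil and pancreas sums were at most 1.14 CPM and 11.8 CPM. The part of cell composition in the member ratios was not tested. Rn45s took 3.89% of reads without AAOT and 4.70% with it, and its part was not tested beyond the scaling without it.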

How the data were processed

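Liver RNA of 2 pools of 3 mice was sequenced from rRNA-depleted directional libraries, per the labels' protocols. The authors deposited CPM for 15526 gene symbols, and their columns sum to 1012463 (control) and 987690 (AAOT), so the values include a factor per library. Per the submitters' processing notes, tools were RSEM, Bowtie2, edgeR and Trimmomatic 0.38 and the build mm10; their roles are not listed. The annotation, and whether strand was used, are not given in the sources used here. All values (100%) were whole multiples of 1 step per column within a relative tolerance of 1e-06, which gave back the reads.

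With 1 library per group no test was run and no count model could be fitted. Computed here were log2((AAOT + 1)/(control + 1)), folds as plain ratios of CPM with exact Clopper-Pearson intervals conditional on the sum of reads, ratios of ratios with Wald intervals on the log scale, and exact binomial intervals of shares. These cover counting error only. Counts use genes with a mean of at least 10 CPM and sizes of 2-fold and 1.5-fold. The members and the 14 gene lists and 10 marker lists were chosen with earlier results of these data known. Some genes stand in several lists. Named are the members, up to 4 genes per list farthest from 0 and list genes at 1000 CPM or more, of which examples are given, 5 genes most like the members, and genome neighbours. Stab2, Tnfaip6, Tfpi2, Socs3, Hnf4a, Cebpb, Cebpa, Foxa1 and Foxa2 were named besides, after their values were seen. Of the list symbols 1 was found under an older symbol. Lengths and unique 50-base stretches come from GENCODE transcripts of GRCm38, motif windows from RefSeq. The steps were tested on simulated reads. Alternatives were 5 scalings, 2 added constants, 3 floors and 2 sizes. Calculations used scipy 1.17.1 with numpy 2.4.6 and pandas 2.3.3 under Python 3.11.15; figures used matplotlib 3.10.9.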

Additional observations from a re-analysis of the deposited data

How the results depend on the processing

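The median log2 ratio of the 8 genes, -0.29 as reported, was -0.25 with scaling by column totals, -0.32 with upper quartile scaling and -0.24 with totals without Rn45s, and moved by less than the counting error under the other alternatives run. The count of genes at least 2-fold lower was 0 under every scaling, constant and floor run and 2 at a size of 1.5-fold. The count below 0 was 8, or 7 with column totals and with totals without Rn45s, where the log2 ratio of Hrg was 0.0066 and 0.019. Over the scalings Itih3 stayed between 1.63-fold and 1.72-fold lower and Ahsg between 1.54-fold and 1.63-fold. Of 129 list alternatives 73 differed from the reported median by no more than the typical counting error of a member, 55 differed by more and kept their sign, and 1 changed sign. That 1 was the median of the chondroitin chain list, -0.05 as reported and 0.078 with a floor of 50 CPM, which takes in fewer genes. Among medians near 0, that of the hyaluronan list, 0.06, was 0.17 with a floor of 1 CPM and 0.11 with totals without Rn45s. With totals without Rn45s the fetuin target median of 0.09 was 0.14, the type 3 cystatin median of -0.10 was -0.05, the transcription factor median of -0.08 was -0.03 and the acute phase signalling median of -0.08 was -0.04. No scaling moved the median of all genes by over 0.1. No paired analysis was possible because each group has 1 library. Without replicate libraries the spread between mice is unknown for every ratio given here. Read counts limit some as well, such as those of Itih5 and Col27a1. The ratio of Hrg is too near to 1 for its direction to be told.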
